A study of Mus musculus with 6 samples.

Results

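Clustered protocadherins are cell-surface adhesion proteins encoded by 3 neighbouring gene clusters, alpha, beta and gamma. In these libraries 22 of 22 beta genes had a log2 fold change above 0 in Tlr7-/- neurons, where 50.1% of all genes tested did, with a median of 0.34, but no single member passed the adjusted test over all genes, which itself called 0.0% of genes. The beta median was 0.12 in Tlr7-/- replicate 1 and 0.45 in replicates 2 and 3. Protocadherins outside the clusters had a median of 0.36 over the whole group, 0.35 in replicate 1 and 0.37 in replicates 2 and 3. A pair of C-type gamma genes, Pcdhgc3 and Pcdhgc5, was lower in Tlr7-/- replicates 2 and 3 than in WT, a contrast that called 49.6% of all genes in either direction. In it genotype cannot be told apart from what else sets these libraries apart, and Pcdhgc5 was not lower in replicate 1. The members were every gene of the count table whose name places it in the alpha, beta or gamma cluster, which took 58 of 25814 genes: 14 alpha, 22 beta and 22 gamma. The gamma genes comprised 12 of the A type, 7 of the B type and 3 of the C type, and the alpha genes included the C-type members Pcdhac1 and Pcdhac2.

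Each cluster is read from many alternative promoters. In the alpha and gamma clusters a large variable exon, which encodes the ectodomain, the transmembrane segment and part of the cytoplasmic tail, is spliced to constant exons that all genes of the cluster share, whereas a beta gene is a single large exon with a tail of its own. Single neurons choose a few A-type, B-type, alpha and beta promoters by chance, with the insulator protein CTCF and the cohesin ring looping the chosen promoter to an enhancer and DNA methylation silencing the others. C-type genes are used more regularly. The proteins pair between cells by like binding to like, which gives a neuron a surface identity by which its own branches avoid each other, and gamma proteins, Pcdhgc4 above all, are known to protect interneurons from death in mice.

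There were 3 Tlr7-/- libraries, compared with 3 wild-type (WT) libraries. Both genotypes were neurons of cortex and hippocampus, mixed in culture, from C57BL/6 mice, grown in Neurobasal medium and DMEM with B27 and harvested on day 18 in vitro. Tlr7 encodes an endosomal sensor of single-stranded RNA, and the allele that removes it, the age of the animals at dissection and whether a replicate is a separate culture or animal are not given in the sources used here, so a p-value here reflects the spread of these libraries alone, which may be technical. The RNA came from whole cultures, in which fewer cells of a type and less RNA per cell cannot be told apart, and in which the choice made by a single neuron is not seen.

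Assigned counts came to 23272450 to 25696625 per library, and a count of 0 allowed up to 3 counts, or 0.117 to 0.129 CPM, for counting error only. CPM stands for counts scaled to the size of a library, here by TMM. Tlr7 itself had 3, 5 and 5 counts in Tlr7-/- replicates 1 to 3 and 4, 8 and 4 in WT, too few to check the genotype labels. Tlr7-/- replicates 2 and 3 carry another style of library name than the other 4 libraries and stood apart from them on the first principal component (62.8% of the variance), at 46.3 and 44.6, while Tlr7-/- replicate 1 was at -21.1 and WT at -29 to -15.6. The rank correlation, across genes, of a gene's deviation with its GC content was -0.545 and -0.46 in these replicates, while Tlr7-/- replicate 1 had 0.306 and WT 0.359 to 0.513. All members have therefore been compared with WT for the whole Tlr7-/- group, for replicate 1 and for replicates 2 and 3. In the contrast of replicates 2 and 3 with WT, genotype cannot be told apart from whatever else sets these libraries apart. The contrast of the whole group holds the same libraries. Summed marker levels were 4340 to 4770 CPM in Tlr7-/- and 4220 to 4380 CPM in WT for 6 neuronal genes, and for 10 genes of the oligodendrocyte lineage they were 686 to 960 CPM in Tlr7-/- and 1330 to 1350 CPM in WT, with no marker at 0 in all libraries. The summed astrocyte list also lay below WT, at 3190 to 3710 CPM in Tlr7-/- and 3790 to 4040 CPM in WT, as did that of inhibitory neurons, at 980 to 1170 CPM in Tlr7-/- and 1180 to 1230 CPM in WT. Single genes of the neuronal, astrocyte and inhibitory lists went both ways. The listed oligodendrocyte genes all had lower mean counts in Tlr7-/- than in WT, though the groups overlapped at Cspg4. Sst had 5362, 1474 and 1838 counts in Tlr7-/- and 7733, 6617 and 7339 in WT. Gad2 had 6693, 5395 and 5858 in Tlr7-/- and 5089, 4747 and 5214 in WT. The astrocyte gene Aqp4 had 3868, 6141 and 6440 in Tlr7-/- and 3930, 3513 and 4601 in WT. The part of these shifts in the differences below was not tested.

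What a count means differed between the clusters. On GRCm38 chromosome 18, plus strand, the GENCODE M21 annotation places the alpha genes at 36930184 to 37187661, the beta genes at 37264938 to 37524479 and the gamma genes at 37661793 to 37841873, and all 58 members have the same positions there as in the count table. Alpha genes had a median of 5356 exonic bases, of which 2860 to 2864 were shared with other members, and gamma genes a median of 4819, of which 2116 to 3157 were shared. All 14 alpha and all 22 gamma genes shared exonic bases in this way, and the span of an upstream gene contains the downstream ones. Beta genes had a median of 3714 exonic bases, and only Pcdhb21 and Pcdhb22 shared any, 455 bases. How the authors' counting treated reads that fit several genes is not given in the sources used here, and the beta genes, being close paralogs, could also exchange reads.

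The 2 deposited tables gave close levels for the beta genes other than Pcdhb12 and different ones for most alpha and gamma genes. A mean log2 CPM was computed from the total counts and set against the mean log2 CPM of the authors' deposited table for the 55 members found in both by name. Of the beta genes, 21 of 22 had both values within 0.5 of each other on the log2 scale, as did 91.2% of the 13783 tested genes in both tables. Of the alpha genes 3 of 12 did, and of the gamma genes 2 of 21. Summed over the genes in both, the alpha cluster had 137 CPM in the authors' deposited table and 35.6 CPM from the counts, and the gamma cluster 466 CPM in the authors' deposited table and 68.2 CPM from the counts. The beta cluster had 198 CPM in the authors' deposited table and 193 CPM from the counts.

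Single members showed the gap most clearly. Pcdhac2 averaged 78.4 CPM in the authors' deposited table and 1.76 CPM from the counts, and Pcdhgc5 94.1 CPM in the authors' deposited table and 4.83 CPM from the counts. Pcdhgc3 had 58.2 CPM in the authors' deposited table and 4.96 CPM from the counts. Pcdha4 differed in the other direction, with 0.109 CPM in the authors' deposited table and 9.19 CPM from the counts. The annotation lists Gm42416, a gene model that runs from within the alpha cluster to the end of the gamma cluster (36952741 to 37840200), over 2410 exonic bases of Pcdha4. Pcdhb12, the beta gene outside the band, had 2.1 CPM in the authors' deposited table and 8.78 CPM from the counts, and 1927 of its 3034 exonic bases lie opposite an annotated gene on the other strand, Gm37446. Whether either count used strand is not given in the sources used here, and the library kit marks it. The part of these overlaps in the gap was not tested. Counts of alpha and gamma genes below are thus levels under 1 counting scheme, whereas those of the beta genes other than Pcdhb12 differed little between both tables.

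**Figure D1:**
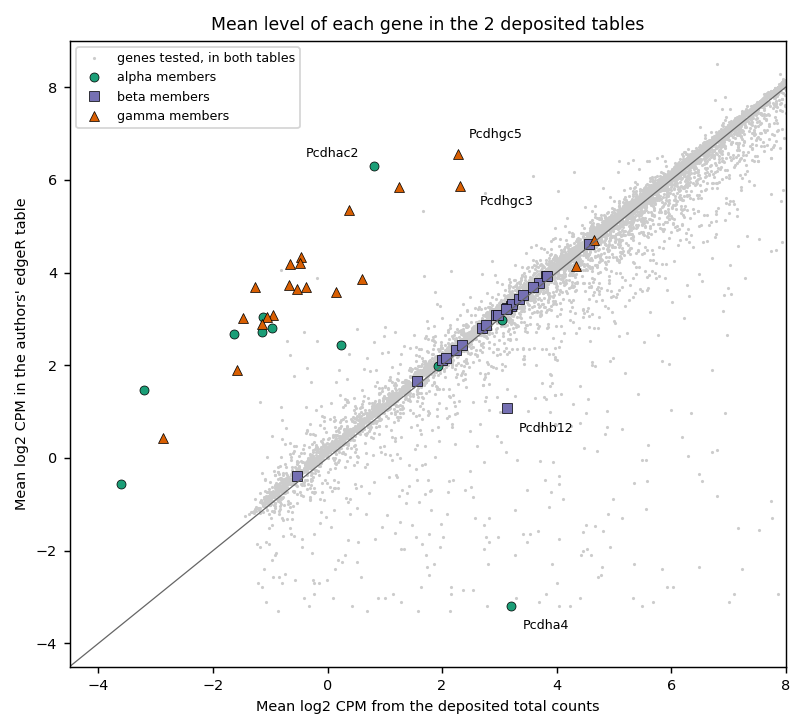
Mean log2 CPM of each gene from the deposited total counts (x axis) against the mean log2 CPM in the authors' edgeR table (y axis), with tested genes in grey, members coloured by cluster and a line of equality. Of the beta members 21 of 22 lie along the line with most genes, whereas 8 of 12 alpha and 19 of 21 gamma members lie more than 1 log2 unit above it and Pcdha4 lies far below it.

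The beta genes were detected throughout. All 22 had counts in every library and passed the filter on low counts, and the deposited RPKM (reads scaled to exon length and to mapped reads), which allows genes to be compared per length, averaged 0.214 (Pcdhb1) to 7.01 (Pcdhb9) over the 6 libraries, with a median of 1.63. Pcdhb9 stood alone at the top, with 6.58, 8.22 and 7.43 RPKM in Tlr7-/- replicates 1 to 3 and 6.35, 6.13 and 7.38 RPKM in WT. Every one of these values lay above the highest of the next gene, Pcdhb5, at 4.55 RPKM. Pcdhb9 took 11% to 13.3% of all beta counts in a library. Pcdhb5 averaged 4.03 ± 0.632 RPKM in Tlr7-/- and 3.22 ± 0.299 RPKM in WT, and Pcdhb7 3.55 ± 0.448 RPKM in Tlr7-/- and 3.17 ± 0.126 RPKM in WT (SD, n = 3 each). Of the 21 pairs of neighbours in the order of levels, 2 did not overlap over the 6 libraries, namely Pcdhb9 above Pcdhb5 and Pcdhb21 above Pcdhb1, and the other 19 did, so that the order between them is not resolved. Pcdhb1, the gene nearest the alpha cluster, had 16, 21 and 17 counts in Tlr7-/- and 9, 13 and 13 in WT.

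**Figure D2:**
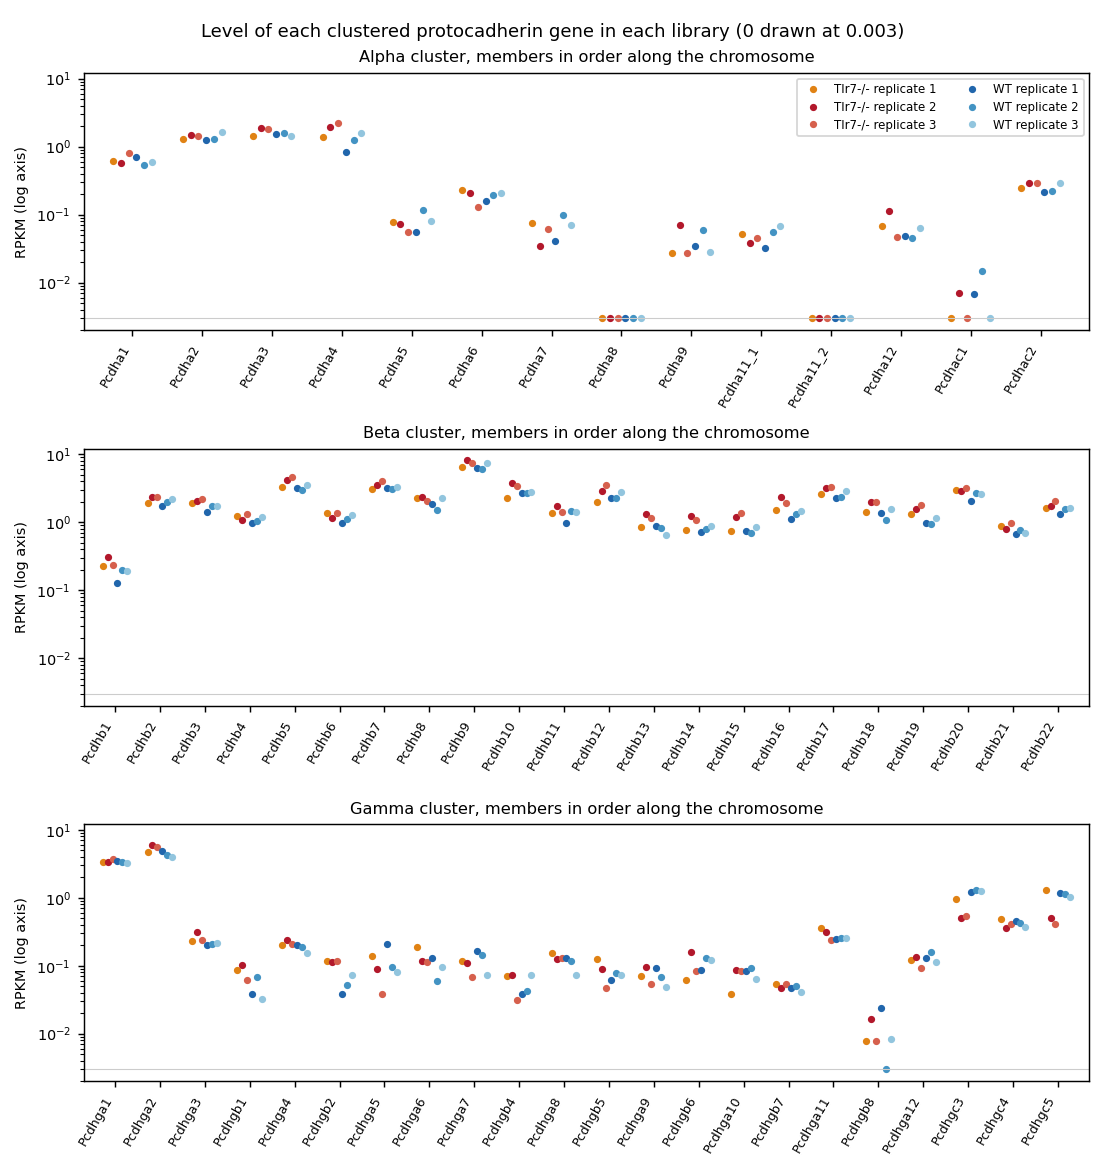
RPKM (log axis) of each member in each of the 6 libraries, with the genes of each cluster in their order along the chromosome and, for each gene, Tlr7-/- replicates 1 to 3 left of WT replicates 1 to 3. The beta genes other than Pcdhb1 all lie between 0.646 RPKM (Pcdhb13) and 8.22 RPKM (Pcdhb9), whereas the alpha genes split into Pcdha1 to Pcdha4 and a low remainder, and the gamma genes into Pcdhga1, Pcdhga2, the C-type genes and a low remainder.

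Summed over the cluster, beta counts were 179, 229 and 234 CPM in Tlr7-/- replicates 1 to 3, against 157, 162 and 184 CPM in WT. Replicates 2 and 3 lay above all WT libraries and replicate 1 lay within their range. The means were 214 ± 30.3 CPM in Tlr7-/- and 168 ± 14.2 CPM in WT (SD, n = 3 each), a log2 ratio of 0.35, which was 0.10 for replicate 1 and 0.47 for replicates 2 and 3. A sum over members has no test here.

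Between the whole groups, 0 of the 46 members tested passed the threshold of 0.05 on the edgeR quasi-likelihood p adjusted over 13947 genes, a test that called 0.0% of all genes. At an unadjusted p under 0.05, 7 members were higher and 1 lower, beside 15.6% and 12.6% of all genes tested. Limma-voom called 0 members and also 0 of all genes tested. DESeq2 called 2 members as higher and 1 as lower, beside 7.94% and 4.86% of all genes tested. Some members with low counts, such as Pcdhgb2, got no adjusted p from DESeq2 and could not be called by it. The largest differences among the beta genes were those of Pcdhb19 and Pcdhb16. Pcdhb19 had 258, 295 and 351 counts in Tlr7-/- and 189, 166 and 216 in WT, that is 12.3 ± 2.07 CPM in Tlr7-/- and 7.77 ± 0.898 CPM in WT (SD, n = 3 each). The Tlr7-/- libraries were all above the WT ones, and Pcdhb19 differed by 0.67 ± 0.164 on the log2 scale (SE; edgeR adjusted p = 0.116). Pcdhb16 had 216, 328 and 277 counts in Tlr7-/- and 163, 170 and 199 in WT, again without overlap (log2 fold change 0.63 ± 0.198, SE; edgeR adjusted p = 0.127). Pcdhb3, the third by p, had 198, 208 and 227 counts in Tlr7-/- and 146, 162 and 172 in WT, without overlap (log2 fold change 0.40 ± 0.143, SE; edgeR adjusted p = 0.141).

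The 3 most abundant beta genes had fold changes of 0.22 to 0.38. Pcdhb9 had 548, 671 and 628 counts in Tlr7-/- and 533, 468 and 592 in WT, and its groups overlapped (log2 fold change 0.22 ± 0.130, SE; edgeR adjusted p = 0.291). Pcdhb5 had 321, 399 and 445 counts in Tlr7-/- and 304, 263 and 330 in WT, and Pcdhb7 had 295, 334 and 386 in Tlr7-/- and 308, 265 and 301 in WT. Both overlapped through Tlr7-/- replicate 1, with log2 fold changes of 0.38 and 0.22.

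As a set the beta genes kept to a narrow range. Their log2 fold changes ran from 0.21 to 0.67, and 22 of 22 were above 0, where 50.1% of all genes tested were and the median gene was at 0.00. At an unadjusted edgeR p under 0.05, 5 were higher and 0 lower, a rule that called 15.6% of all genes tested as higher. In 7 of 22 (Pcdhb1, Pcdhb3, Pcdhb16, Pcdhb19, Pcdhb20, Pcdhb21 and Pcdhb22) every Tlr7-/- library lay above every WT library, as did 16.5% of all genes tested, and in none did it lie below. DESeq2 called Pcdhb19 (adjusted p = 0.0137) and Pcdhb16 (adjusted p = 0.047) higher, in a test that called 7.94% of all genes tested as higher. After removal of the trends that libraries showed with GC content and gene length, the beta median was 0.29 and 21 of 22 were above 0, as were 53.3% of all genes tested. On RPKM with a pseudocount of 1 the beta median was 0.17. The fold change of Pcdhb19 with the trends removed was 0.38, and that of Pcdhb14, the beta gene whose value moved most, was -0.03, against 0.42 without the correction. The beta genes were read from the same libraries and are not replicates of each other.

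The beta values differed within the Tlr7-/- group, with a median log2 difference of 0.35 between replicates 2 and 3 and replicate 1, where the median of all genes tested was 0.01. Against WT, replicate 1 had a median log2 fold change of 0.12 over the beta genes, with 16 of 22 above 0 (49.2% of all genes tested). It called 0 members by edgeR and 0 by DESeq2, beside 0.889% of all genes tested as higher, 0.545% as lower and 1.43% in either direction. At an unadjusted p under 0.05, replicate 1 had 1 member higher, Pcdhb19, beside 8.2% of all genes tested, and 0 lower, beside 7.23%. Replicates 2 and 3 had a median of 0.45 with 22 of 22 above 0 (49.8% of all genes tested), and 14 of the 22 rose, in a contrast that called 24.4% of all genes tested as higher. The genes that rose were Pcdhb3, Pcdhb5, Pcdhb7, Pcdhb9, Pcdhb10, Pcdhb12 to Pcdhb19 and Pcdhb22. The largest fold changes were those of Pcdhb15 at 0.82 (edgeR adjusted p = 0.00852) and of Pcdhb16 and Pcdhb19, both 0.79 (edgeR adjusted p = 0.00163 and 0.0011). With the trend with GC content and length removed, 8 of the 14 passed, beside 16.5% of all genes tested as higher: Pcdhb5, Pcdhb9, Pcdhb10, Pcdhb12, Pcdhb13, Pcdhb15, Pcdhb16 and Pcdhb19. The libraries within the Tlr7-/- group differed from each other at 4 beta genes, Pcdhb5 (0.46), Pcdhb10 (0.69), Pcdhb12 (0.76) and Pcdhb14 (0.67), which were higher in replicates 2 and 3 than in replicate 1 (log2 difference; edgeR adjusted p under the threshold of 0.05), as were 15% of all genes tested, a share near these 4 of 22. Pcdhb10 and Pcdhb12 still passed with the trend removed, beside 7.55% of all genes tested, while Pcdhb5 (0.41, edgeR adjusted p = 0.0918) and Pcdhb14 (0.18, edgeR adjusted p = 0.478) did not. Pcdhb10 shows the split, with 178, 283 and 265 counts in the 3 Tlr7-/- libraries, against 213, 189 and 211 in WT. In Pcdhb19 the libraries differed among themselves by 0.39 (edgeR adjusted p = 0.128), and replicate 1 stood at 0.40 against WT (edgeR adjusted p = 0.302).

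**Figure D3:**
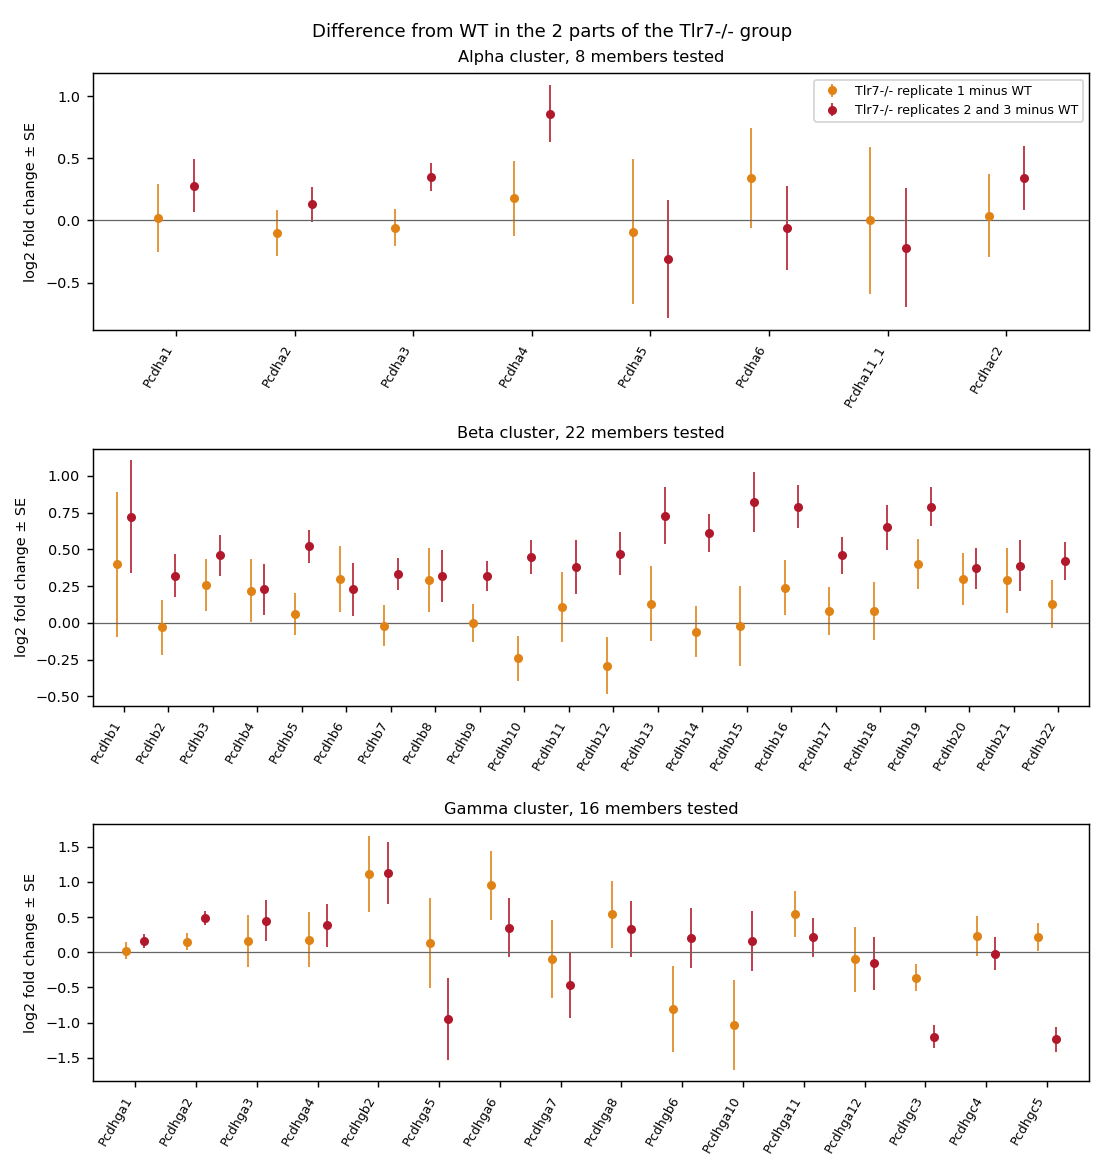
Log2 fold change from WT (y axis, ± SE) of each tested member in its order along the chromosome, for Tlr7-/- replicate 1 (orange) and for Tlr7-/- replicates 2 and 3 (red). The 22 beta genes lie above 0 in replicates 2 and 3, with a median of 0.45 against 0.12 in replicate 1, and Pcdhgc3 and Pcdhgc5 lie furthest below 0 in replicates 2 and 3.

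In the alpha cluster, Pcdha1 to Pcdha4, the genes at its upstream end, took 84.6% to 89.9% of the counts, a share that rests on the counting described above. Of the 14 alpha genes 8 were tested. Pcdha8 and Pcdha11_2 had no count in any library, and the genes from Pcdha5 to Pcdha12 had 0 to 34 counts per library (0 to 0.187 RPKM on average). The 3 highest per length were Pcdha3 at 1.61 RPKM, Pcdha4 at 1.54 RPKM and Pcdha2 at 1.39 RPKM, averaged over the 6 libraries. Pcdha4 had 201, 282 and 334 counts in Tlr7-/- and 122, 169 and 224 in WT. Its groups overlapped, and the log2 fold change was 0.67 ± 0.284 (SE; edgeR adjusted p = 0.179), which is a value for a gene that the authors' deposited table counts near 0. Pcdha3 had 210, 263 and 268 counts in Tlr7-/- and 225, 212 and 199 in WT (log2 fold change 0.22, edgeR adjusted p = 0.337). Pcdha2 had 188, 210 and 213 in Tlr7-/- and 186, 174 and 228 in WT (log2 fold change 0.06, edgeR adjusted p = 0.81), and Pcdha1 89, 83 and 121 in Tlr7-/- and 102, 71 and 83 in WT (log2 fold change 0.20, edgeR adjusted p = 0.54). All 8 tested alpha genes overlapped between the groups.

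The alpha fold changes ran from -0.23 to 0.67 with a median of 0.14, and 6 of 8 were above 0. The median rested on single libraries, at 0.02 without Tlr7-/- replicate 2, 0.03 without Tlr7-/- replicate 3 and -0.01 without WT replicate 1. It was 0.01 in replicate 1, where 0 passed, also at an unadjusted p under 0.05, and 0.21 in replicates 2 and 3, where Pcdha3 (0.35, edgeR adjusted p = 0.0313) and Pcdha4 (0.86, edgeR adjusted p = 0.0152) rose. These 2 of 8 stand near the 24.4% of all genes tested that this contrast called as higher. Pcdha4 still passed with the trend with GC content and length removed (0.74, edgeR adjusted p = 0.0421), and Pcdha3 did not (0.24, edgeR adjusted p = 0.132). Gm42416, annotated over exonic bases of Pcdha4, had 112, 0 and 0 counts in Tlr7-/- replicates 1 to 3 and 125, 64 and 57 in WT. Its part in the Pcdha4 counts was not tested. Summed alpha counts were 32.0, 40.7 and 42.6 CPM in Tlr7-/- replicates 1 to 3 and 28.4, 31.7 and 34.8 CPM in WT, with replicate 1 inside the WT range, and averaged 38.4 ± 5.61 CPM in Tlr7-/- and 31.7 ± 3.2 CPM in WT (SD, n = 3 each).

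The C-type alpha genes sit nearest the constant exons. Pcdhac1 was hardly counted, with 0, 1 and 0 counts in Tlr7-/- and 1, 2 and 0 in WT, and was not tested. Pcdhac2, which serotonergic neurons of mice use for the spacing of their axons, had 40, 46 and 48 counts in Tlr7-/- and 35, 33 and 45 in WT. Its groups overlapped, and the log2 fold change was 0.25 ± 0.233 (SE; edgeR adjusted p = 0.489), against -0.04 in the authors' deposited table. The 3 listed markers of serotonergic neurons had few counts. Tph2 had 12, 14 and 13 counts in Tlr7-/- and 12, 10 and 9 in WT. Slc6a4 had 3, 0 and 0 in Tlr7-/- and 3, 2 and 4 in WT, and Fev 3, 2 and 0 in Tlr7-/- and 2, 7 and 2 in WT.

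In the gamma cluster, Pcdhga1 and Pcdhga2, again the genes at the upstream end, took 62.7% to 76.2% of the counts. The other 17 A-type and B-type genes had 0 to 47 counts per library and 0.0106 to 0.278 RPKM on average. Pcdhga2, at 4.88 RPKM, had 612, 742 and 719 counts in Tlr7-/- and 621, 494 and 491 in WT. Replicates 2 and 3 lay above all WT libraries and replicate 1 just below WT replicate 1. Its log2 fold change was 0.38 ± 0.129 (SE; edgeR adjusted p = 0.135). Replicate 1 alone gave 0.15, and in replicates 2 and 3 the gene rose by 0.48 (edgeR adjusted p = 0.0033). Pcdhga1 had 491, 475 and 559 counts in Tlr7-/- and 506, 445 and 461 in WT, with overlap (log2 fold change 0.11 ± 0.0992, SE; edgeR adjusted p = 0.459). Both genes had close to the same level in the authors' deposited table, where their log2 fold changes were 0.08 for Pcdhga1 and 0.33 for Pcdhga2.

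The low A-type and B-type genes carried little information on the genotype. Pcdhga11, the third A-type gene by level, had 47, 40 and 31 counts in Tlr7-/- and 32, 30 and 32 in WT, with a log2 fold change of 0.33 (edgeR adjusted p = 0.386). Pcdhga3 had 30, 39 and 31 in Tlr7-/- and 26, 25 and 27 in WT, without overlap (log2 fold change 0.36, edgeR adjusted p = 0.351), and Pcdhga6 24, 15 and 15 in Tlr7-/- and 17, 7 and 12 in WT, with overlap (log2 fold change 0.59, edgeR adjusted p = 0.341). Pcdhgb2 had the largest fold change of all members, with 15, 14 and 15 counts in Tlr7-/- and 5, 6 and 9 in WT. The groups did not overlap and the log2 fold change was 1.12 ± 0.361 (SE; edgeR adjusted p = 0.13), but the authors' deposited table gives 0.11 for this gene. Pcdhgb6 had 8, 20 and 11 counts in Tlr7-/- and 11, 15 and 15 in WT (log2 fold change -0.07, edgeR adjusted p = 0.928), and Pcdhgb5, at 16, 11 and 6 in Tlr7-/- and 8, 9 and 9 in WT, was not tested. Of the 12 members under the filter, 6 were alpha and 6 gamma, with 0 to 16 counts per library, and differences in these were not detectable at this depth.

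Among the C-type gamma genes, Pcdhgc3 and Pcdhgc5 were lower in part of the Tlr7-/- group and Pcdhgc4 was not called. Pcdhgc3 had 124, 63 and 69 counts in Tlr7-/- replicates 1 to 3 and 154, 155 and 153 in WT, or 3.46 ± 1.26 CPM in Tlr7-/- and 6.30 ± 0.317 CPM in WT (SD, n = 3 each). All Tlr7-/- libraries were below all WT libraries, as in 16.2% of all genes tested, and replicates 2 and 3 had fewer than replicate 1. Pcdhgc3 thus had -0.86 ± 0.254 on the log2 scale (SE; edgeR adjusted p = 0.122), and DESeq2 called the gene lower (adjusted p = 0.0328) in a test that called 4.86% of all genes tested as lower. In replicates 2 and 3 it fell by 1.20 on the log2 scale (edgeR adjusted p = 0.000317), a direction in which 25.2% of all genes tested were called, and in replicate 1 the value was -0.36 (edgeR adjusted p = 0.419).

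Pcdhgc5 had 166, 63 and 53 counts in Tlr7-/- and 153, 135 and 130 in WT. Replicate 1 lay above every WT library and replicates 2 and 3 below every one, so the pooled value of -0.58 ± 0.401 (SE; edgeR adjusted p = 0.356) averages log2 fold changes of opposite sign. They were 0.21 for replicate 1 (edgeR adjusted p = 0.674) and -1.24 for the other two (edgeR adjusted p = 0.000443). Both Pcdhgc3 and Pcdhgc5 were also lower in replicates 2 and 3 than in replicate 1, by log2 differences of -0.84 (edgeR adjusted p = 0.0153) and -1.45 (edgeR adjusted p = 0.00163), as were 16.6% of all genes tested, and both still passed there with the trend removed (-0.75 and -1.42, edgeR adjusted p = 0.0344 and 0.00275), beside 11.8%. With the trend with GC content and length removed both still fell in replicates 2 and 3, by 1.09 for Pcdhgc3 (edgeR adjusted p = 0.00112) and by 1.23 for Pcdhgc5 (edgeR adjusted p = 0.00101) on the log2 scale, beside 18.2% of all genes tested.

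Pcdhgc4, the gamma gene on which interneuron survival depends in mice, lies between them. It had 66, 48 and 58 counts in Tlr7-/- and 62, 53 and 49 in WT, and its groups overlapped (0.07 ± 0.204, SE; edgeR adjusted p = 0.841). Against WT, replicate 1 gave 0.23 and the other two -0.02, and the log2 difference of -0.25 between them did not pass (edgeR adjusted p = 0.556). Summed over the 3 genes, the C-type gamma level was 14.1, 7.34 and 7.36 CPM in Tlr7-/- and 14.4, 14.7 and 13.5 CPM in WT. Summed over all 22 gamma genes it was 68.9, 70.6 and 68.6 CPM in Tlr7-/- and 68.4, 64.2 and 60.4 CPM in WT, or 69.3 ± 1.08 CPM in Tlr7-/- and 64.3 ± 4.0 CPM in WT (SD, n = 3 each). The Tlr7-/- sums all lay above the WT sums, by little at the closest. The log2 ratio to WT was 0.10 in replicate 1 and 0.11 in replicates 2 and 3. In replicates 2 and 3 it was 0.31 for the summed A-type genes and -0.95 for the summed C-type gamma genes.

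The direction of Pcdhgc5 depended on the table. In the authors' deposited table, which compares the whole groups, Pcdhgc5 had a log2 fold change of 0.27 (false discovery rate 0.412), Pcdhgc3 of -0.39 (false discovery rate 0.249) and Pcdhgc4 of 0.06. The authors' deposited table holds no values per library, so the split between Tlr7-/- replicates could not be looked at there. Gm42416, whose span covers the gamma C-type genes and whose annotated exons overlap theirs, had 112, 0 and 0 counts in Tlr7-/- and 125, 64 and 57 in WT. Its exons also overlap those of every other gamma gene, Pcdhga2 among them. Like Pcdhgc3 and Pcdhgc5 it was lower in replicates 2 and 3 than in replicate 1, and its part in their counts was not tested. Pcdhgc3 also has 1559 exonic bases opposite the annotated gene BC037039 on the other strand.

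**Figure D4:**
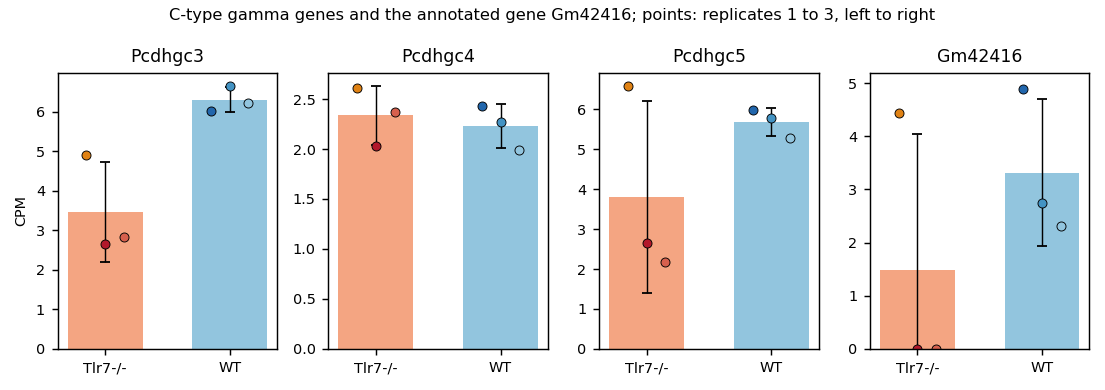
CPM (y axes, from 0) of Pcdhgc3, Pcdhgc4, Pcdhgc5 and the gene model Gm42416 in Tlr7-/- (left) and WT (right) libraries, with bars for the mean, error bars for the SD (n = 3) and points for replicates 1 to 3. In Pcdhgc3, Pcdhgc5 and Gm42416 Tlr7-/- replicates 2 and 3 lie below all WT libraries, at 2.66 and 2.82, 2.66 and 2.17, and 0 and 0 CPM, and in Pcdhgc4 the groups overlap.

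Over the gamma genes, fold changes ran from -0.86 to 1.12 with a median of 0.09, and 9 of 16 were above 0. The median was 0.16, 0.15 and 0.28 without Tlr7-/- replicates 1, 2 and 3 in turn and 0.19 without WT replicate 1. On RPKM, where 4 gamma genes had a mean of at least 0.5, the median was below 0, at -0.33 to -0.14 with pseudocounts of 0.1 to 1. In 4 (Pcdhga3, Pcdhga4, Pcdhga8 and Pcdhgb2) all Tlr7-/- libraries lay above WT and in 1 (Pcdhgc3) below, beside 16.5% and 16.2% of all genes tested. Over the clusters 12 of 46 tested members thus had groups without overlap, 11 higher and 1 lower, beside the same 16.5% and 16.2%. Without Tlr7-/- replicate 1 it was 30, without WT replicate 1 19 and without WT replicate 3 22. Fewer libraries had to be passed there, and the shares over all genes are not given. In replicates 2 and 3 against WT, 1 of the 16 gamma genes tested rose (Pcdhga2) and 2 fell (Pcdhgc3 and Pcdhgc5), beside 24.4% and 25.2% of all genes tested. In the authors' deposited table, 0 of the 55 members had a false discovery rate under 0.05, a rule that called 1.05% of its genes as higher and 0.649% as lower. At an unadjusted p under 0.05 it had 2 members higher, both beta genes, and 1 lower, beside 7.86% and 7.21% of its genes. There the median log2 fold change was 0.30 for the beta genes, with 21 of 22 above 0 and Pcdhb12 at -0.09, 0.23 for 12 alpha genes and 0.11 for 21 gamma genes, and 50.9% of all its genes were above 0. The smallest false discovery rate was that of Pcdhb19, 0.106, at a log2 fold change of 0.62.

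Genes that act on the clusters' chromatin were compared in the same fit. Of 31 such genes, all tested, 0 passed the adjusted edgeR test between the whole groups and DESeq2 called 11 as higher, beside 7.94% of all genes tested. By edgeR 15 were higher and 2 lower at an unadjusted p under 0.05, beside 15.6% and 12.6% of all genes tested, and the median log2 fold change was 0.18, or 0.04 with the trend with GC content and length removed. The 4 with the smallest p belong to the cohesin system. Nipbl, which loads cohesin, had 47.8, 78.1 and 77.2 CPM in Tlr7-/- replicates 1 to 3 and 33.4, 35.5 and 41.7 CPM in WT (log2 fold change 0.88 ± 0.199, SE; edgeR adjusted p = 0.116). Wapl, which releases cohesin from DNA, had 35.7, 50.1 and 45.7 CPM in Tlr7-/- and 26.5, 27.6 and 29.4 CPM in WT (0.65 ± 0.135, SE; edgeR adjusted p = 0.116). Neither pair of groups overlapped, and in both genes replicates 2 and 3 stood further from WT than replicate 1 did. The cohesin subunits Stag2 and Smc3 had log2 fold changes of 0.81 and 0.67 (edgeR adjusted p = 0.116 each). With the trend removed the values were 0.56 for Nipbl, 0.38 for Wapl, 0.32 for Stag2 and 0.47 for Smc3.

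In replicates 2 and 3 against WT, 16 of the 31 chromatin genes rose, Nipbl (1.07, edgeR adjusted p = 3.28e-05) and Wapl (0.78, edgeR adjusted p = 7.03e-05) among them, and 2 fell, beside the 24.4% and 25.2% of all genes given above. After the trend was removed 9 rose and 3 fell, beside 16.5% and 18.2% of all genes tested. Replicate 1 alone called 0 of them by the adjusted edgeR test, and 8 were higher and 1 lower at an unadjusted p under 0.05, beside 8.2% and 7.23% of all genes tested, with 0.37 for Nipbl and 0.36 for Wapl. Ctcf itself, named here for its role and not by the rule on small p, differed by 0.12 ± 0.0772 on the log2 scale (SE; edgeR adjusted p = 0.341), and Smchd1, a repressor of these clusters in mice, by 0.49 (edgeR adjusted p = 0.124), or 0.01 with the trend removed. Smchd1 too was chosen after its values were seen.

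Of 38 genes for intracellular partners and processing of the proteins, all tested, 0 passed between the whole groups by edgeR and 6 by DESeq2, all higher, beside 7.94% of all genes tested. By edgeR 9 were higher and 4 lower at an unadjusted p under 0.05, beside 15.6% and 12.6% of all genes tested, and the median was -0.03. The smallest p were those of Pik3ca (0.54, edgeR adjusted p = 0.112), a lipid kinase subunit, Nlgn1 (0.41, edgeR adjusted p = 0.116), a synaptic adhesion protein, Prkca (0.32, edgeR adjusted p = 0.116), a protein kinase C, and Abi2 (0.35, edgeR adjusted p = 0.116), a subunit of the WAVE actin regulator to which protocadherin tails bind. With the trend removed they were 0.20, -0.10, 0.14 and 0.07 in that order. Pik3ca was the 1 gene of this list called in replicate 1 (0.37, edgeR adjusted p = 0.0483), where 0.889% of all genes tested were called as higher, and 11 rose and 9 fell in replicates 2 and 3, beside 24.4% and 25.2% of all genes tested. With the trend removed Pik3ca no longer passed in replicate 1 (0.30, edgeR adjusted p = 0.106), where Pik3r1 alone then passed, as lower, beside 0.566% of all genes tested. Then 4 rose and 10 fell in replicates 2 and 3, beside 16.5% and 18.2% of all genes tested.

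The protocadherins outside the clusters, which are single genes on other promoters, gave a median log2 fold change of 0.36 over 11 tested of 12, or 0.14 with the trend with GC content and length removed, with 0 called by edgeR. DESeq2 called 5 higher, beside 7.94% of all genes tested, and at an unadjusted edgeR p under 0.05 there were 6 higher and 0 lower, beside 15.6% and 12.6% of all genes tested. Pcdh17 had 99.4, 93.6 and 96.1 CPM in Tlr7-/- and 71.6, 71.5 and 73.1 CPM in WT (0.42 ± 0.0663, SE; edgeR adjusted p = 0.112). Replicate 1 was as high as the other two, and Pcdh17 rose both in replicate 1 (0.46, edgeR adjusted p = 0.0237) and in the other two (0.40, edgeR adjusted p = 0.000463), contrasts that called 0.889% and 24.4% of all genes tested as higher. It still passed in replicate 1 with the trend removed (0.37, edgeR adjusted p = 0.0318), beside 0.846% of all genes tested, and no longer in the other two (0.02, edgeR adjusted p = 0.787). Pcdh9 had 137, 160 and 155 CPM in Tlr7-/- and 106, 102 and 109 CPM in WT (0.51 ± 0.0830, SE; edgeR adjusted p = 0.112). Against WT, Pcdh9 stood at 0.38 in replicate 1, or 0.34 with the trend removed. In replicates 2 and 3 Pcdh9 rose by 0.57 (edgeR adjusted p = 6.99e-05). With the trend removed it still passed there (0.26, edgeR adjusted p = 0.0053). Pcdh7 and Pcdh11x followed in the whole groups with 0.37 and 0.61 (edgeR adjusted p = 0.116 each). In replicates 2 and 3 against WT, 6 genes of this list rose and 1 fell, beside 24.4% and 25.2% of all genes tested. Pcdh8 was the gene that fell (-1.8, edgeR adjusted p = 0.000239). With the trend removed the log2 fold changes between the whole groups were 0.15 for Pcdh17, 0.29 for Pcdh9 and 0.15 for Pcdh7, and that of Pcdh11x turned to -0.02. Whether these genes differed from the beta cluster in their change was not tested.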

How the data were processed

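One deposited table gives, per the file headers, total counts per gene, which were tested as they stand, RPKM, which the authors scaled for length and mapped reads, and TPM, deposited but used only to check the unit. The other is the authors' edgeR comparison with deposited log2 fold changes, mean log2 CPM and p-values. The submitters' processing notes name the build GRCm38.p6 and the tools bcl2fastq, HISAT2, featureCounts and edgeR. Their versions and which tool made which table are not given in the sources used here. Libraries were made with a stranded mRNA kit, per the labels.

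Counts were filtered with filterByExpr by genotype (13947 genes kept), scaled by TMM and tested with edgeR 4.0.16 (glmQLFit with robust dispersion, two-sided glmQLFTest, R 4.3.3) and p-values were adjusted by Benjamini-Hochberg across the tested genes (threshold 0.05). Tlr7-/- replicate 1 and replicates 2 and 3 were contrasted with WT and each other in a 3-group fit, which pools the spread, so that the lone replicate 1 is assumed to vary like the others. The split follows library names in the labels. Trends of a library with GC content and length were taken out as offsets (natural splines, 5 degrees of freedom), and exons came from GENCODE M21. DESeq2 1.42.0, limma 3.58.1 (voom, and RPKM with pseudocounts of 0.1, 0.5 and 1), other scalings and filters, the naming style as a covariate, a replicate block and leaving out each library were alternatives. Only Tlr7-/- replicates 2 and 3 have the other naming style. With that covariate the fit thus compares replicate 1 alone with WT and is no separate check. Figures were drawn with matplotlib 3.10.9.

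Members given in every library were the C-type genes and, in the alpha, beta, gamma A and gamma B groups, the 3 highest by mean RPKM and the 3 with the smallest p. For other lists up to 4 genes with the smallest p were named. The members and lists were chosen with earlier results of these data known. The procedure was tested on simulated data.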

Additional observations from a re-analysis of the deposited data

How the results depend on the processing

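Members called between the whole groups numbered 0 under edgeR and 3 under DESeq2 (2 higher, 1 lower), beside 0.0% and 12.8% of all genes tested. They numbered 0 to 19 when each library was left out, with 19 (17 higher, 2 lower) without Tlr7-/- replicate 1. Shares over all genes are not given for fits with a library left out. The contrast of replicates 2 and 3 with WT, which also called 19 members, called 49.6% of all genes tested. A replicate block, with the replicate number as a covariate, also called 0 members, and its share over all genes is not given. Deviations of same-numbered libraries correlated at 0.241, -0.084 and 0.264, and not every library correlated best with its own number. Such deviations, centred within groups of 3 libraries, cannot decide whether the numbers pair the libraries. Of the 69 chromatin and partner genes, 0 were called in the comparison as reported and 17 by DESeq2, all higher, beside 7.94% of all genes tested. With a library left out 0 to 38 were called (38 without Tlr7-/- replicate 1). The 19 members called in replicates 2 and 3 became 12 with the trend with GC content and length removed, beside 49.6% and 34.7% of all genes tested. Between the Tlr7-/- libraries 6 members differed, beside 31.6% of all genes tested. For these, library size alone and the trend's removal were alternatives chosen after seeing the data, and gave 7 and 4.

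The beta median of 0.34 was 0.12 with naming style as a covariate, which is again the value of Tlr7-/- replicate 1 alone against WT. It was 0.27, 0.22 and 0.17 on RPKM with pseudocounts of 0.1, 0.5 and 1, 0.21 on RPKM with no filter, and 0.28 to 0.45 with a library left out. The alpha median of 0.14 was 0.01 with naming style, 0.01 on RPKM with no filter, and -0.01 (without WT replicate 1) to 0.21 with a library left out. The gamma median of 0.09 rests on few counts: it was 0.16 with no filter, 0.21 with at least 1 CPM in 3 libraries, 0.16 with naming style, 0.14 with the trend removed, 0.02 on RPKM with no filter, -0.33, -0.21 and -0.14 on RPKM with pseudocounts of 0.1, 0.5 and 1 (4 genes left), and 0.10 to 0.28 with a library left out. The gamma sum's log2 ratio of 0.11 was 0.06 on RPKM and 0.06 to 0.15 with a library left out. Members without overlap, 12 in all (11 higher, 1 lower), stood beside 16.5% and 16.2% of all genes tested. They numbered 12 to 30 with a library left out (30 without Tlr7-/- replicate 1, 19 without WT replicate 1, 22 without WT replicate 3), for which shares over all genes are not given.

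Of 375 values of the 21 named members tested, 349 kept their direction and side of the threshold, 14 newly passed it and 12 turned direction: Pcdha2 (-0.10 with naming style, -0.00 with the trend removed, -0.01 to 0.18 with a library left out), Pcdha3 (-0.06 with naming style), Pcdhb7 (-0.02 with naming style), Pcdhgb6 (0.02 with the trend removed, -0.54 to 0.20 with a library left out), Pcdhgc4 (-0.02 to 0.16 with a library left out) and Pcdhgc5 (0.21 with naming style). The cause of these moves was not tested.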
